A study of Homo sapiens with 2 samples.

Results

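The interferon response and antigen presentation genes were examined in HepG2 cells exposed to Padma 28, a polyherbal preparation. HepG2 is an established line from a human liver cancer. The set was a list of 38 genes, drawn up by known role with earlier results of these data in view, which holds interferon receptors, their kinases, transcription factors, RNA sensors, induced antiviral genes and the genes that load peptides onto MHC class I. Of these, 37 had at least 1 probe set of their own among the 19775 genes of the array, with 73 such probe sets in all. STAT2 had none in the annotation used here and was not analysed here. Cells received an aqueous ethanolic solution of Padma 28 at 218 µg/ml or the solvent control, EtOH at 0.9%, for 18 h. Per the labels the medium was changed 6 h after seeding, and the study's methods give another flask and a longer time before treatment. Cells of 3 cultures were combined per treatment before RNA isolation and read on 1 Affymetrix U133 Plus 2.0 array, so no replicate error exists for any value given here. The labels name no added interferon. All levels are log2 GCRMA values as deposited, and each difference is Padma 28 minus EtOH on that log2 scale. With pooled cells, fewer cells of a kind and less RNA per cell cannot be told apart.

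Interferons are secreted proteins that warn cells of infection. Type I interferons bind IFNAR1 and IFNAR2 and type II interferon binds IFNGR1 and IFNGR2, after which the Janus kinases attached to these receptors activate STAT proteins. STAT complexes bind 2 kinds of DNA element in target promoters, the interferon-stimulated response element (ISRE) and the gamma-activated site (GAS), and the target genes block viral replication or supply peptides to MHC class I. Hepatocytes carry these receptors and are a main target of interferon therapy in viral hepatitis.

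Of the 37 genes, 28 lay above background on at least 1 array and 9 below it on both. On the whole array, 9414 of 19775 genes were below it on both. Background was set at 2 log2 units above the most frequent value of an array, which gave a limit of 4.35 with Padma 28 and 4.25 with EtOH. A gene was represented by its brightest own probe set. Of the 28 measured genes, 6 were more than 1.5-fold higher with Padma 28 (21.4%), against 6.49% of the 10361 genes above background on the whole array. These 6 were JAK2, ISG20, IFI35, OAS1, TAP2 and IRF1. None of the 28 was more than 1.5-fold lower, against 2.9% of all genes. Past 2-fold, 1 member was higher (JAK2), against 1.57% of all genes, and none was lower, against 0.705% of all genes. The median difference of the 28 was 0.11, with 21 above zero and 7 below it. Over all 10361 genes the median was 0.06 and 58.1% were positive. The share past 1.5-fold depended on the probe sets read. When each gene took the middle value of its probe sets it was 2 of 25 members, against 5.02% of all genes, and without _x_at and _s_at probe sets 2 of 20 members, against 7.24%. JAK2 was above background only on the Padma 28 array, where it was high. With both arrays required, 5 of 27 members were past 1.5-fold, against 6.05% of all genes, and none past 2-fold. No test was possible with 1 array per treatment, and nothing is called particular to the list.

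**Figure D1:**
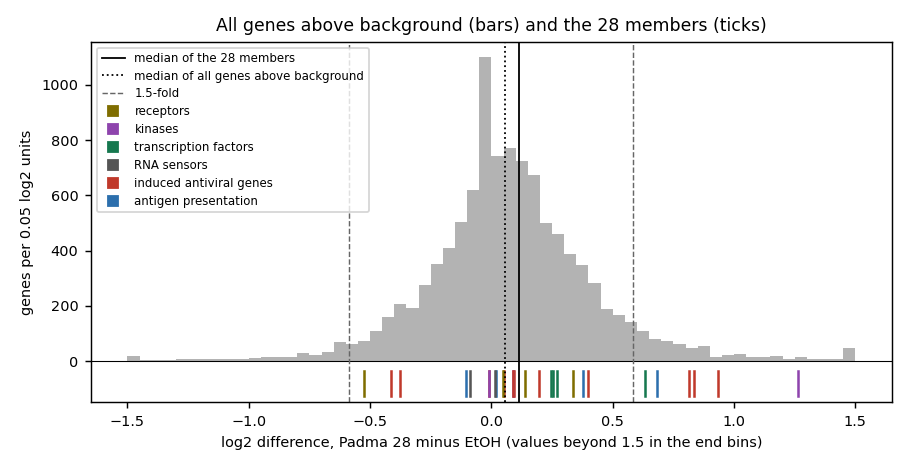
Histogram of the log2 difference (Padma 28 minus EtOH) for 10361 genes above background on at least 1 array, with the 28 measured members as coloured ticks below and the medians as lines. The member median of 0.11 stands near the array median of 0.06, and 6 ticks lie beyond the 1.5-fold line on the right, none on the left.

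A yardstick within the arrays was the disagreement between probe sets of 1 gene. Over the 5064 genes with more than 1 probe set above background, the differences of the 2 brightest probe sets lay 0.15 apart in the median, and 0.48 apart at the 90th percentile. Among 12 members the gap was 0.16 in the median, with a range of 0.05 to 1.72. This yardstick covers how probes read the same pool of RNA and says nothing of variation between cultures.

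The promoters of these genes were read in the RefSeq windows of GRCh38.p14, which run from 250 bases before to 50 bases after each start of transcription. Of the 38 genes, 31 had at least 1 window. The shared cores of the 2 elements were searched on both strands, GAAANNGAAA for the ISRE and TTCNNNGAA for the GAS, where N is any base. These letters can overlap, since an ISRE core that opens with GAA can lie on the end of a GAS core. An ISRE core was found in 19 of the 31 genes (61.3%), against 4.38% of the 27305 genes in the table, and a GAS core in 9 of the 31 (29.0%), against 9.38%. Such a match is a description of the letters and not evidence of binding. The list was drawn up by known role in the interferon response, so these shares are not independent of the choice of members. Of the 6 genes past 1.5-fold, ISG20 and TAP2 held an ISRE core, IRF1, IFI35 and OAS1 held a GAS core, and JAK2 held neither within its windows. The stretches before the start are shown 5′ to 3′ along the gene, with the core in capitals.
ISG20 (chr15:88638922-88638981, plus strand): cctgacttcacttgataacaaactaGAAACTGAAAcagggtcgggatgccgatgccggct
TAP2 (chr6:32838763-32838822, minus strand): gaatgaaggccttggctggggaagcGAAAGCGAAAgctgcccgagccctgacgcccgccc
IRF1 (chr5:132490864-132490922, minus strand): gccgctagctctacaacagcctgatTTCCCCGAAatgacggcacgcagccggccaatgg
IFI35 (chr17:43006737-43006783, plus strand): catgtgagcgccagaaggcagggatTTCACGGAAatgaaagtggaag
OAS1 (chr12:112906769-112906827, plus strand): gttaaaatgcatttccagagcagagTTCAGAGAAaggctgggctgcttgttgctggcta

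The following stretches belong to members with an ISRE core that were not past 1.5-fold or, for CXCL10, below background. They are shown because their values differ from those of ISG20 and TAP2 although they carry the same core. The further measured members with an ISRE core, from IFIH1 at -0.09 to OAS3 at 0.40, are not shown. TTTCNNTTTC is the ISRE core read on the other strand, and matches that overlap or lie next to each other are in capitals together.
ISG15 (chr1:1013359-1013424, plus strand): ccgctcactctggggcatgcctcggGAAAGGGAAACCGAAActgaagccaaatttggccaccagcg
BST2 (chr19:17405720-17405785, minus strand): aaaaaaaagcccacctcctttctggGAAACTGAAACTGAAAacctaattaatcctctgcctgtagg
B2M (chr15:44711348-44711413, plus strand): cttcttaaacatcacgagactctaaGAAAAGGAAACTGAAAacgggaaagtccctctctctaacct
IFIT1 (chr10:89392482-89392554, plus strand): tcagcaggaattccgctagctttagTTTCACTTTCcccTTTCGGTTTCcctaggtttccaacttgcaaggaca
IFIT3 (chr10:89332453-89332512, plus strand): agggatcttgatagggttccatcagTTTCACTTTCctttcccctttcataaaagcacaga
CXCL10 (chr4:76023684-76023743, minus strand): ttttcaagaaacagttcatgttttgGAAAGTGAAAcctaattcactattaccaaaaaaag

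All 4 receptor chains were above the limits on both arrays, and none was past 1.5-fold. IFNGR1, the ligand-binding chain of the type II receptor, was at 12.23 with Padma 28 and 11.89 with EtOH. The difference was 0.34, and its other probe sets differed by 0.22 (11.23 with Padma 28 and 11.01 with EtOH) and -0.02 (5.53 with Padma 28 and 5.55 with EtOH). IFNGR2, the signalling chain of the same receptor, was at 11.10 with Padma 28 and 10.96 with EtOH. IFNAR1, a chain of the type I receptor, had the lowest difference of all 28 measured members, -0.52, with 7.61 on the Padma 28 array and 8.14 on the EtOH array. Its other measured probe sets did not share this difference. They were at 5.89 with Padma 28 and 5.90 with EtOH, and at 6.16 with Padma 28 and 6.23 with EtOH. IFNAR2, the partner chain, was at 8.32 with Padma 28 and 8.28 with EtOH, and its other probe sets differed by -0.16 (6.90 with Padma 28 and 7.06 with EtOH) and 0.06 (6.92 with Padma 28 and 6.86 with EtOH). The receptor group had a median difference of 0.09.

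Among the 3 Janus kinases, JAK1 and TYK2 differed by 0.09 and -0.01, while JAK2 depended on the probe set read. JAK1, which serves both receptor types, was at 11.07 with Padma 28 and 10.98 with EtOH, and its further probe sets above background were at 9.89 with Padma 28 and 9.74 with EtOH, and at 7.97 with Padma 28 and 8.07 with EtOH. TYK2, which serves the type I receptor, was at 8.72 with Padma 28 and 8.73 with EtOH. JAK2, which is attached to the type II receptor, was at 5.26 with Padma 28 and at 4.00 with EtOH, below the limit of that array. Set against the limit, JAK2 was at least 2.02-fold higher with Padma 28. A second JAK2 probe set ran the other way, at 4.16 with Padma 28, below the limit, and 4.61 with EtOH. That made it at least 1.20-fold lower with Padma 28. The third JAK2 probe set was below background on both arrays, at 3.30 with Padma 28 and 3.06 with EtOH. All JAK2 signals were dim, so its place at the top of the list rests on 1 probe set near the limit.

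By their brightest own probe sets, the 4 measured transcription factors were all higher with Padma 28, by a median of 0.26. Over all genes above background, 58.1% were positive and the 75th percentile of the differences was 0.25. IRF1, a factor that acts early in the response to type II interferon and drives antigen presentation genes, was at 7.53 with Padma 28 and 6.90 with EtOH. This was a 1.55-fold difference, or 0.63 on the log2 scale. A dimmer IRF1 probe set near the limit did not show it, with 4.52 on the Padma 28 array and 4.62 on the EtOH array. IRF2, which competes with IRF1 for the same element, was at 9.45 with Padma 28 and 9.18 with EtOH. IRF3, the factor that RNA sensing activates to start interferon transcription, was at 9.64 with Padma 28 and 9.38 with EtOH. IRF9, the DNA-binding subunit of the STAT complex that recognises the ISRE, was at 8.33 with Padma 28 and 8.08 with EtOH. The last 3 factors thus differed by 0.25 to 0.27, below the 1.5-fold line. A further probe set that IRF9 shares with RNF31 was at 9.20 with Padma 28 and 9.34 with EtOH and cannot be given to either gene. IRF7, which amplifies type I interferon, was below background at 2.03 with Padma 28 and 2.06 with EtOH.

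**Figure D2:**
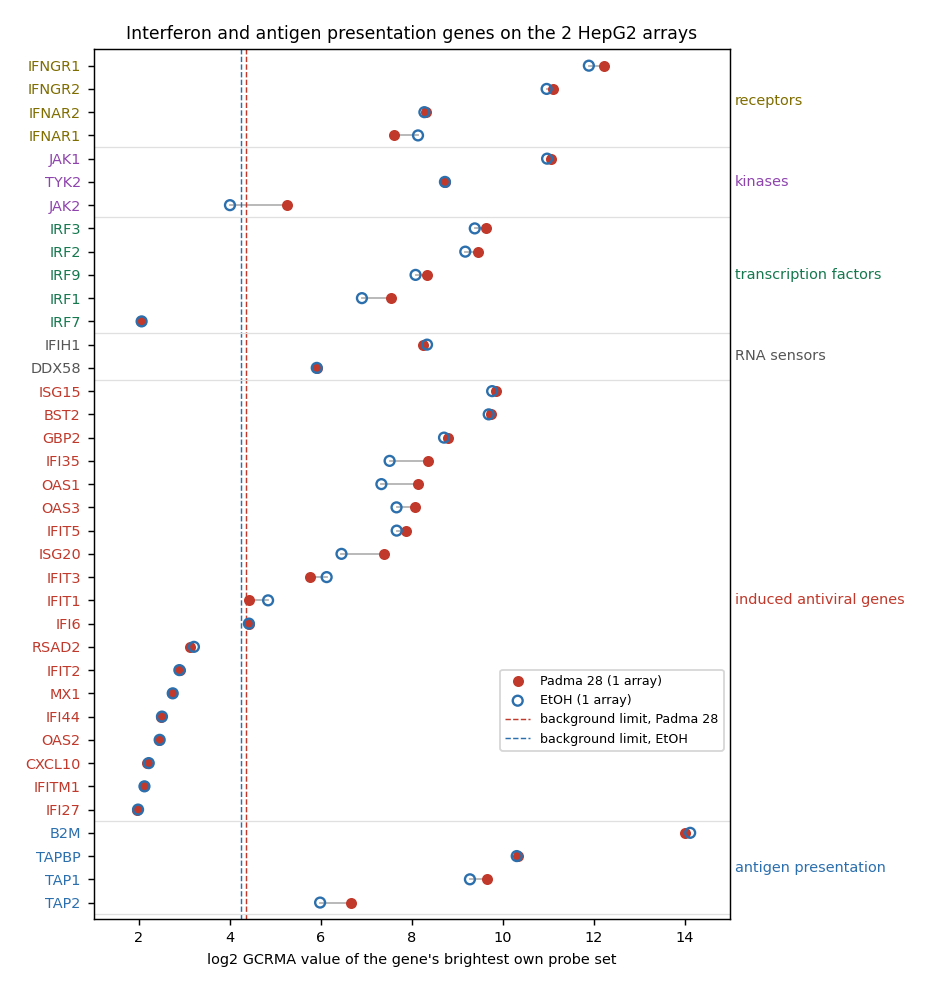
Log2 GCRMA level of the brightest own probe set of each of the 37 genes on the Padma 28 array (filled) and the EtOH array (open), 1 array each, grouped by role, with the background limit of each array as a dashed line. IRF1, IFI35, OAS1, ISG20 and TAP2 show the clear gaps to the right, JAK2 crosses the limits, and 9 genes lie below them on both arrays.

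The RNA sensors differed by less than 0.1 between the arrays. DDX58, which encodes RIG-I, was at 5.92 with Padma 28 and 5.91 with EtOH, and its other measured probe set was at 4.55 with Padma 28 and 4.58 with EtOH. IFIH1, which encodes MDA5, was at 8.24 with Padma 28 and 8.33 with EtOH.

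The 19 induced antiviral genes comprised 3 genes past 1.5-fold higher, 8 measured genes within 1.5-fold and 8 genes below background. The 3 were 27.3% of the 11 measured genes, against 6.49% of all genes above background. On the whole array, 9414 of 19775 genes were below background on both arrays. ISG20, an exonuclease that degrades single-stranded RNA, was at 7.39 with Padma 28 and 6.45 with EtOH, a 1.91-fold difference. A second ISG20 probe set of almost the same brightness gave 7.43 with Padma 28 and 6.40 with EtOH, a difference of 1.03 that is just past 2-fold. Of the 6 members past 1.5-fold, ISG20 was the only one whose further probe sets above background also passed that line. IFI35, an interferon-induced leucine zipper protein, was at 8.35 with Padma 28 and 7.51 with EtOH, a 1.78-fold difference from its only probe set. OAS1, a synthetase whose oligoadenylate products activate RNase L, was at 8.14 with Padma 28 and 7.33 with EtOH, a 1.76-fold difference. The other OAS1 probe set was below background on both arrays. OAS3, the neighbouring gene of the same family, was at 8.06 with Padma 28 and 7.66 with EtOH, so it differed the same way by 0.40 but stayed under the line. OAS2, which lies next to them, was below background with all 3 of its probe sets.

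The IFIT genes, which lie in a cluster and include sensors that bind foreign RNA, were split in direction. IFIT1 was at 4.42 with Padma 28 and 4.84 with EtOH, both close to the limit, a difference of -0.41. IFIT3 was at 5.75 with Padma 28 and 6.13 with EtOH, a difference of -0.38, while its other probe set was below background. IFIT5 was at 7.86 with Padma 28 and 7.67 with EtOH, a difference of 0.20. IFIT2 was below background on both arrays. Of the measured IFIT genes, 2 were therefore lower and 1 higher with Padma 28, none past 1.5-fold.

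The brightest probe sets of the remaining measured antiviral genes differed by less than 0.1. ISG15, the ubiquitin-like protein that is conjugated to other proteins in the response, was at 9.85 with Padma 28 and 9.77 with EtOH. BST2, or tetherin, which holds budding virions at the membrane, was at 9.74 with Padma 28 and 9.69 with EtOH. IFI6 sat at the limit, at 4.41 with Padma 28 and 4.42 with EtOH. GBP2, a guanylate-binding protein, was at 8.80 with Padma 28 and 8.71 with EtOH, and at 5.84 with Padma 28 and 5.44 with EtOH by a dimmer probe set, whose difference was 0.40. So ISG15 and BST2, well above the limits on both arrays, were not among the higher genes.

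Below background on both arrays were IRF7, IFIT2, IFI27, IFI44, IFITM1, OAS2, MX1, RSAD2 and CXCL10. Their levels lay between 1.96 and 3.21 over both arrays, and their differences between -0.08 and 0.02. MX1, a GTPase that traps viral nucleocapsids, was at 2.73 with Padma 28 and 2.74 with EtOH. RSAD2, or viperin, was at 3.13 with Padma 28 and 3.21 with EtOH. CXCL10, a chemokine that attracts T cells, was at 2.19 with Padma 28 and 2.21 with EtOH. No fold change is given for these genes, since neither array measured them above its limit. For IFITM1 a probe set shared with IFITM2 was at 4.41 with Padma 28 and 4.34 with EtOH.

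In the antigen presentation group, both subunits of the peptide transporter were higher with Padma 28 and the light chain of MHC class I was not. TAP2 was at 6.67 with Padma 28 and 5.98 with EtOH, a 1.61-fold difference. A dimmer TAP2 probe set was at 5.23 with Padma 28 and 5.29 with EtOH and did not show it. TAP1, the other subunit, was at 9.65 with Padma 28 and 9.28 with EtOH, a difference of 0.38 and below the 1.5-fold line. TAPBP, or tapasin, which bridges the transporter and MHC class I, was at 10.33 with Padma 28 and 10.31 with EtOH, and at 6.44 with Padma 28 and 6.34 with EtOH by another probe set. B2M, the light chain of MHC class I, was at 14.02 with Padma 28 and 14.12 with EtOH. Its second bright probe set was at 13.90 with Padma 28 and 13.91 with EtOH. B2M served as the internal reference of the study's quantitative PCR, and its probe sets differed by -0.10 and -0.01 here.

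**Figure D3:**
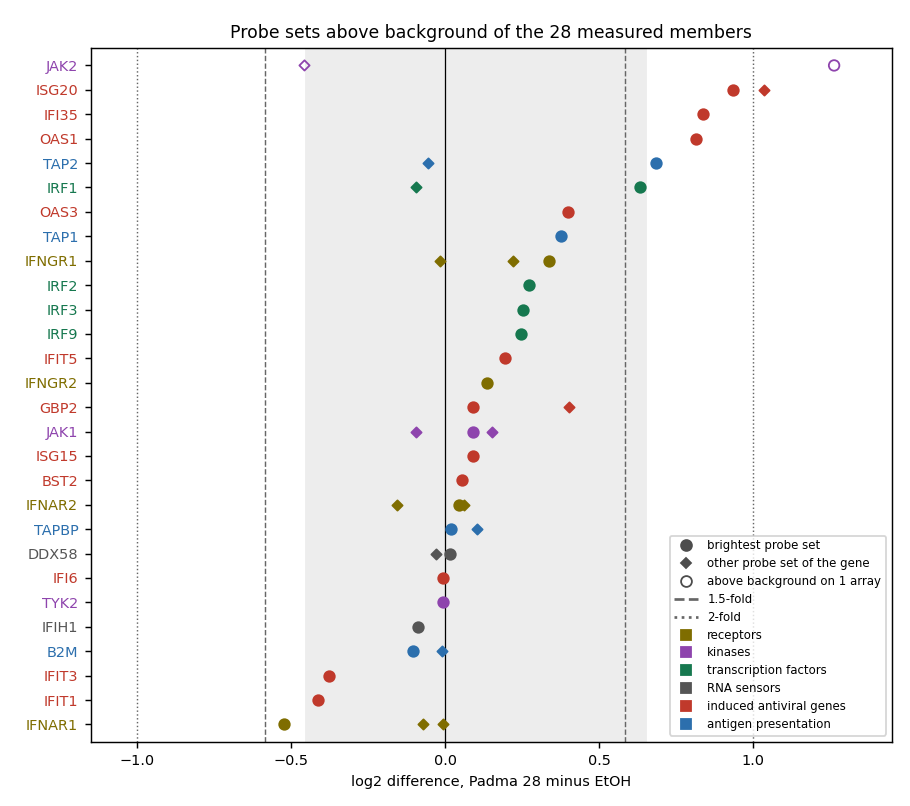
Log2 difference, Padma 28 minus EtOH, of every own probe set above background for the 28 measured genes, ordered by the brightest probe set (circle), with other probe sets as diamonds and open symbols where only 1 array was above its limit. The grey band holds the 5th to 95th percentile of all genes, -0.45 to 0.65. The probe sets of ISG20 lie together, while those of JAK2, TAP2 and IRF1 fall on opposite sides of zero.

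The 6 genes past 1.5-fold were therefore not equally secure on these arrays. For JAK2, TAP2 and IRF1 another probe set above background had a difference of the opposite sign, at -0.46 for JAK2, -0.06 for TAP2 and -0.09 for IRF1. For IFI35 and OAS1 only 1 probe set was above background. For ISG20 both probe sets were past 1.5-fold.

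Of the 24 measured genes with a promoter window, 13 held an ISRE core and had a median difference of 0.05, from -0.41 for IFIT1 to 0.94 for ISG20, with 2 past 1.5-fold. The 6 with a GAS core (IRF1, IRF9, IFI35, OAS1, BST2 and TAP1) had a median of 0.50, from 0.05 to 0.84, with 3 past 1.5-fold, and all 6 were positive. For IRF9 the sign turned, to -0.14, when the probe set shared with RNF31 was counted, and the second probe set of IRF1 was at -0.09. The difference between the classes was not tested. The classes also depend on the pattern searched, which fixes the spacing of the GAAA blocks. The IFI35 stretch holds GAAATGAAA, a closer spacing that was not counted as an ISRE core. Other spacings were not searched. BST2 and TAP1 counted in both classes. The 7 genes with neither core had a median of 0.09, and JAK2 was the 1 past 1.5-fold. Over all genes above background with a window, the median was 0.08 for 711 genes with a GAS core and 0.04 for 319 genes with an ISRE core. The share past 1.5-fold higher was 6.47% with a GAS core and 7.84% with an ISRE core, against 6.38% of all 8594 such genes. Positive differences made up 60.6% with a GAS core and 56.1% with an ISRE core, against 59.0% of all these genes. All 6 genes below background that had a window (IFI27, IFI44, IFITM1, MX1, RSAD2 and CXCL10) held an ISRE core, beside the 13 of 24 measured genes. Over all genes with a window the shares were 4.33% below background and 3.71% above it. The 6 were all listed as induced antiviral genes, and a link between the core and a low level was not tested.

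**Figure D4:**
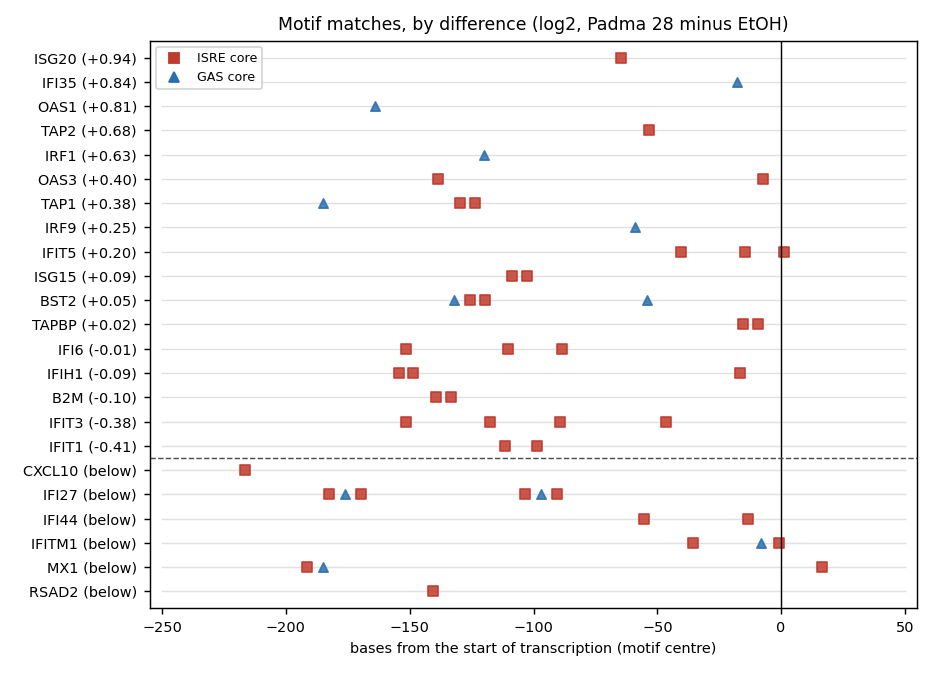
Positions of ISRE cores (squares) and GAS cores (triangles) relative to the start of transcription, in bases, for the members that hold one, ordered by log2 difference (Padma 28 minus EtOH, in brackets), with the 6 genes below background under the dashed line. Matches from all windows of a gene are drawn, each against its own start. ISG20 and TAP2 share the ISRE core with IFIT1 and IFIT3 at the low end of the measured genes.

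The wider pathway was read from further lists. None of the 18 interferon genes with a probe set, among them IFNB1, IFNG and IFNL1, was above background on either array. Of 17 measured further receptor and signalling genes, 1 was past 1.5-fold higher (5.88%, against 6.49% of all genes) and none lower, with a median of 0.04. This was IFNLR1, the ligand-binding chain of the type III receptor, at 9.32 with Padma 28 and 8.72 with EtOH, a 1.51-fold difference. STAT3, a transcription factor of cytokine signalling, was at 10.95 with Padma 28 and 10.68 with EtOH. STAT5B, a related factor, was at 8.04 with Padma 28 and 7.77 with EtOH, but its 3 measured probe sets ran from -0.25 to 0.26. PIAS2, an inhibitor of activated STAT proteins, was at 8.42 with Padma 28 and 8.68 with EtOH.

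Among further interferon-stimulated genes, 5 were past 1.5-fold higher. Of 53 listed, 27 were measured, so the share was 18.5%, against 6.49% of all genes, none was lower, and the median was 0.20. Other probe set rules were run for the members only, so this share was not checked under them. APOL6, an apolipoprotein L family member, was at 7.56 with Padma 28 and 6.82 with EtOH, and its 3 measured probe sets differed by 0.73 to 0.94. UBE2L6, a conjugating enzyme for ISG15, was at 9.34 with Padma 28 and 8.64 with EtOH, a 1.62-fold difference. ISG15 itself differed by 0.09. NMI, a binding partner of IFI35, was at 8.17 with Padma 28 and 7.55 with EtOH, a 1.53-fold difference. MX2, a GTPase related to MX1, was at 6.30 with Padma 28 and 5.69 with EtOH, a 1.52-fold difference. ZC3HAV1, a zinc finger antiviral protein of the same list, is named here after its values had been seen. By its brightest probe set it lay barely past the line, at 9.37 with Padma 28 and 8.79 with EtOH. Its 3 measured probe sets differed by 0.53 to 0.87.

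Of 5 measured nucleic acid sensing genes, TICAM1, the adaptor of TLR3, was at 4.55 with Padma 28 and at 3.77 with EtOH, below the limit, so it was at least 1.23-fold higher. TBK1, the kinase that phosphorylates IRF3, was at 9.72 with Padma 28 and 9.25 with EtOH, a 1.38-fold difference. TRAF3, which links the sensors to that kinase, was at 5.79 with Padma 28 and 5.61 with EtOH, and MAVS, the mitochondrial adaptor of RIG-I, at 10.15 with Padma 28 and 10.12 with EtOH.

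By their brightest probe sets, none of 10 measured MHC class I genes was past 1.5-fold, and their median was -0.01. The probe sets of HFE disagreed. Its brightest differed by -0.02, while its 8 measured probe sets ran from -0.90 to 0.05, so the lowest was past 1.5-fold lower. MICB, a stress-induced ligand of natural killer cells, was at 11.42 with Padma 28 and 11.14 with EtOH. HLA-F was at 10.87 with Padma 28 and 11.02 with EtOH, HLA-B at 12.72 with Padma 28 and 12.76 with EtOH, and FCGRT, the neonatal Fc receptor, at 10.31 with Padma 28 and 10.28 with EtOH. Probe sets of the classical heavy chains can read each other's transcripts, so their values are uncertain as single genes. By their brightest probe sets, 1 of 13 measured peptide supply genes was past 1.5-fold higher (7.69%, against 6.49% of all genes) and none lower. Their median was -0.03, with 7 of the 13 below zero, the lowest at -0.31 (ERAP2). The 4 measured probe sets of ERAP2 were all lower, from -0.75 to -0.17, so the lowest was past 1.5-fold lower. The gene past 1.5-fold higher was PSMB9, an inducible proteasome subunit whose gene lies head to head with TAP1. PSMB9 was at 6.19 with Padma 28 and 5.57 with EtOH, a 1.54-fold difference. PSMB10 and PSMB8, the other inducible subunits, differed by 0.47 (7.76 with Padma 28 and 7.29 with EtOH) and by 0.43 (8.49 with Padma 28 and 8.06 with EtOH). PSMB6, the constitutive subunit that PSMB9 replaces, differed by 0.38, at 11.97 with Padma 28 and 11.59 with EtOH. Positive differences were thus not confined to the inducible subunits, and of these only PSMB9 was past 1.5-fold.

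**Figure D5:**
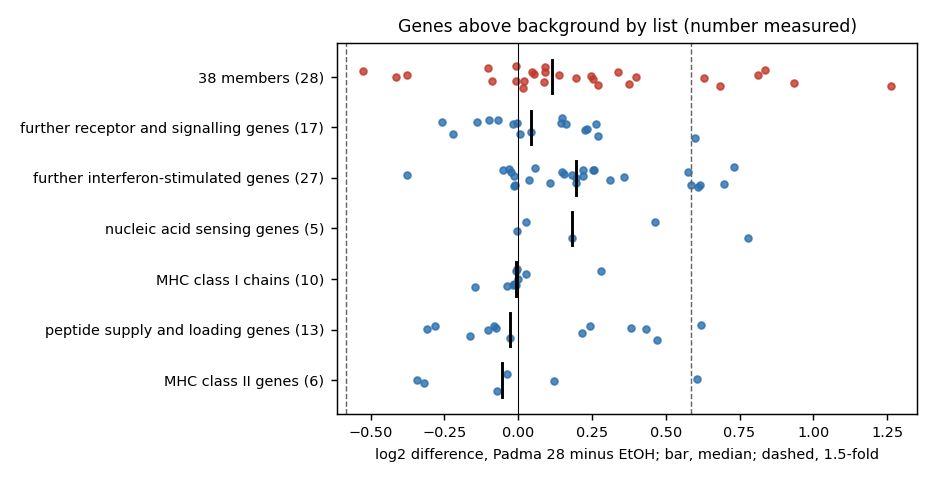
Log2 difference, Padma 28 minus EtOH, of each gene above background in the 38-gene list and 6 further lists, with the number measured in brackets, medians as bars and 1.5-fold as dashed lines. The medians run from -0.06 for MHC class II genes to 0.20 for further interferon-stimulated genes. By the brightest probe set, which is drawn for each gene, none lies past the line on the left.

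Of the MHC class II genes, 10 of 16 were below background, among them HLA-DRA and its activator CIITA. On the whole array this held for 9414 of 19775 genes. Of the 6 measured class II genes, 1 was past 1.5-fold higher (16.7%, against 6.49% of all genes). None was past 1.5-fold lower, and the median was -0.06. RFXAP, a subunit of the factor that binds class II promoters, was at 8.97 with Padma 28 and 8.36 with EtOH, a 1.52-fold difference. Its other measured probe set differed by 0.37, under the 1.5-fold line. CD74, the invariant chain, was at 10.64 with Padma 28 and 10.98 with EtOH. HLA-DMB was at 5.04 with Padma 28 and 5.36 with EtOH, and RFX5, a partner of RFXAP, at 8.28 with Padma 28 and 8.16 with EtOH.

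The identity of the cells was checked with marker genes. All 8 hepatocyte markers with a probe set, ALB and AFP included, were above background on both arrays. By the brightest probe sets their differences were -0.55 to -0.05, with a median of -0.20. Over all measured probe sets of a gene they ran from -1.07 to 0.27 for ALB and from -1.23 to -0.17 for TF. For APOB they ran from -0.88 to -0.30. All 5 immune cell markers with a probe set, PTPRC and CD3E included, were below background on both arrays. Of 6 endothelial and stromal markers, VWF and CDH5 were below background, and PECAM1, COL1A1, PDGFRB and ACTA2 above it. PDGFRB was at 5.33 with Padma 28 and 5.94 with EtOH, a difference of -0.62 and past 1.5-fold lower, PECAM1 differed by 0.32, and their part in the results was not tested. The 18 probe sets of the hybridisation controls differed by -0.15 to 0.10, and 39.7% of all probe sets were above the limit with Padma 28 and 40.2% with EtOH. A pool of cultures on 1 array gives no measure of how far these values would vary if the treatment were repeated, and whether the differences come from the extract or from the cultures was not tested.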

How the data were processed

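RNA from HepG2 cells treated with Padma 28 or EtOH was measured on 1 Affymetrix array per treatment. The authors corrected background by the GC content of probes, quantile normalized both arrays and summarized probe sets with GCRMA, and the deposited log2 values of 54675 probe sets were used unchanged. Versions in the submitters' processing notes were R 2.15.1 and GCRMA 2.28.0, later than those in the study's methods. The unspecific filter of the methods, which is given without a cutoff, was not applied. Quantile normalization makes the arrays' distributions alike, so a shift shared by most genes cannot be seen.

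Genes were named from the platform annotation, with symbols updated through RefSeq (GRCh38.p14). Of the probe sets, 41097 had 1 gene, 1801 several and 11777 none. The difference was taken for the brightest own probe set of each gene, and counted where the gene was more than 2 log2 units above the array's most frequent value (bins of 0.1) on at least 1 array. Thresholds were 1.5-fold and 2-fold. Where 1 array was below its limit, the fold was taken against that limit.

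With 1 array per treatment no test was made and no p-value, SD or interval can be given, since precision is limited by the number of arrays. The scripts' calls were tested on simulated data, in which all probe sets of a gene held the same planted difference with added noise. Disagreement between probe sets beyond that noise was not simulated, so this check does not cover it. The text accounts for every member, gives the probe sets of members whose probe sets disagreed, and names up to 4 genes with the largest absolute difference of each further list. The members and lists were chosen with earlier results of these data known. Alternatives were other probe set rules, limits, offsets of 16 and 64, centring on the median or by loess (span 0.3), renormalization, leaving out _x_at and _s_at probe sets, and counting shared probe sets. Tools were pandas 2.3.3, numpy 2.4.6 and statsmodels 0.14.6 under Python 3.11.15.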

Additional observations from a re-analysis of the deposited data

How the results depend on the processing

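The median difference of the members stayed within 0.15 of its value of 0.11, and the count above background within 1.5 times of 28, under all 14 alternatives. Of these, 13 were planned, and setting values below the limit at the limit was chosen after seeing the data. The count past 1.5-fold higher, 6 as reported, was 2 when a gene took the median of its probe sets (5.02% of all genes), 3 with 64 added to both linear values (3.03%), and 2 without _x_at and _s_at probe sets (7.24%). It was 4 with 16 added, without IRF1 and TAP2, and 5 with the limit 3 log2 units above the mode or both arrays required, without JAK2, or with quantile normalization repeated, without IRF1. The count past 1.5-fold lower was 1 (IFNAR1) when quantile normalization was repeated, and 0 otherwise. The count past 2-fold higher, 1 as reported, was 2 with the probe set of the largest difference, and 0 with the median over probe sets, a limit 3 log2 units above the mode, a requirement of both arrays above background, 16 or 64 added, or no _x_at and _s_at probe sets. Without those probe sets, the differences turned to -0.46 for JAK2 and -0.057 for TAP2, since another probe set then stood for the gene. ISG20 was past 1.5-fold under each alternative, and IFI35 under each in which it kept a probe set. The ISRE core was found in 15 of the 31 genes with 1 more fixed letter (GAAANNGAAAC) and in 19 in the bases before the start alone. No leave-one-out or paired analysis was possible because each treatment had 1 array. Members near the limit (IFI6, IFIT1, JAK2) carry the least signal over background.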
